A study of Mus musculus with 4 samples.

Results

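The 9 genes Gmnc, Mcidas, Ccno, Foxj1, Ttr, Otx2, Folr1, Kl and Clic6 are described here across the 4 libraries. They comprise 4 genes that drive the formation of multiciliated cells (Gmnc, Mcidas, Ccno and Foxj1) and 5 genes that mark the choroid plexus epithelium (Ttr, Otx2, Folr1, Kl and Clic6). The 9 were named as a list out of 21951 protein-coding genes, and were chosen by the presence and rank of their peaks in these same libraries, so their values are a description and none was tested. Chromatin accessibility was measured by ATAC-seq, in which Tn5 transposase cuts open DNA and inserts sequencing adapters, in nuclei of hippocampi taken at postnatal day 0 (P0). The 2 cKO libraries carried the genotype Kdm2bEmx1-delta-CxxC, in which Emx1-Cre, active in the dorsal telencephalon, deletes the exon for the CxxC zinc finger that brings KDM2B to CpG islands. The 2 Ctrl libraries came from Kdm2bfl/+ or Kdm2bfl/fl mice, and the labels do not say which library had which genotype (the peak names of Ctrl1 carry the tag Kf-+ and those of Ctrl2 Kf-f, which the sources do not explain), whether hippocampi were pooled, or the litter and sex. The libraries are called Ctrl1, Ctrl2, cKO1 and cKO2, after the group and replicate number in their titles. Cells outside the Emx1 lineage keep the intact allele in a dissected cKO hippocampus. The source field of the labels reads neural progenitor cells, whereas the titles and the protocol name the hippocampus.

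Multiciliated cells carry many motile cilia and move fluid, in the brain mainly as ependymal cells that line the ventricles. GEMC1, the product of Gmnc, stands at the top of the programme, and it works with Multicilin, the product of Mcidas, and with E2F and DP proteins to switch on genes for centriole production. Ccno, which lies beside Mcidas, encodes a cyclin-like protein needed to make many centrioles, and Foxj1 encodes the forkhead factor that turns on genes of motile cilia. The choroid plexus is the epithelium that secretes cerebrospinal fluid, and it lies next to the hippocampus. Its cells are also ciliated. Ttr encodes transthyretin, a carrier of thyroid hormone, Otx2 a homeodomain factor required for the tissue, Folr1 a folate receptor, Kl the hormone co-receptor Klotho and Clic6 a chloride intracellular channel protein.

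The deposited lists differed in length and content. Peaks numbered 46389 for Ctrl1, 7037 for Ctrl2, 21404 for cKO1 and 44535 for cKO2, at an estimated 14.6 to 29.6 M (mega) fragments per library. The estimate used the background depth recovered from each list, its shortest peak as the fragment length and a fixed genome size. By this estimate Ctrl2 had the most fragments, and it had the fewest peaks. Of the Ctrl2 peaks, 60.6% lay mainly in repeat-masked sequence against 5.37 to 14.7% in the other 3 libraries. A promoter peak, one with its summit within 2 kb of an annotated start site (TSS) of the gene, was listed for 58.0% of protein-coding genes in Ctrl1, 8.27% in Ctrl2, 40.2% in cKO1 and 55.8% in cKO2. Of 18 genes of the dorsal telencephalon, 16, 0, 12 and 17 had a promoter peak in the same order, with Pax6 and Lhx2 among the strongest. Alb, Ins2, Myh6 and Krt5, markers of other tissues, had none in any list. These sets also differed in CpG content: 14 of the 18 promoters but 0 of these 4 were CpG-rich, as defined below. CpG-rich promoters had a peak more often in every library. Group differences and cKO-only counts are given with and without Ctrl2. The lists hold open sites and not transcripts, so they do not check the deletion in Kdm2b.

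The sequences at the summits of 3 member promoters are shown first, because these promoters differ in how rich they are in CpG, the dinucleotide that the CxxC domain recognises. Each is taken from the mm10 (GRCm38) reference around the summit in cKO2, up to 300 bases long, kept within the peak and trimmed of untranslated sequence, on the strand of the gene and with each CpG in capitals. The Gmnc window (chr16:26989590-26989889, minus strand) lies in the first intron of transcript Gmnc-201. The Ccno window (chr13:112987574-112987801, plus strand) and the Foxj1 window (chr11:116335400-116335594, minus strand) end at the base before the TSS.
Gmnc promoter: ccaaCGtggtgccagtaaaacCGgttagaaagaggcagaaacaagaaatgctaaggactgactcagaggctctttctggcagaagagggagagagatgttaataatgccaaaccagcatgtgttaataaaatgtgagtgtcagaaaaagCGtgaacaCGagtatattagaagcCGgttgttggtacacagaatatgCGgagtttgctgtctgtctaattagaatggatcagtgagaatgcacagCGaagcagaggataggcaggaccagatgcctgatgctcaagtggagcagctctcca
Ccno promoter: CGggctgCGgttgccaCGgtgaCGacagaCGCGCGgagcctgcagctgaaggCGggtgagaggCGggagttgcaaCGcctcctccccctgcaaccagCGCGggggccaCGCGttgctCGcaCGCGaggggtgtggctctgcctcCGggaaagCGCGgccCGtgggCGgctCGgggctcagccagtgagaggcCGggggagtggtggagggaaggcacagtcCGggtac
Foxj1 promoter: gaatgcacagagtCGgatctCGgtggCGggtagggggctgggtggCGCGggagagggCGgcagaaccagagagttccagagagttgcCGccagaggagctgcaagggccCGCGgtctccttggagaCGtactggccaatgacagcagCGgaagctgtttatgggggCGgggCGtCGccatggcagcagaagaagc
The Gmnc window held 7 CpG in 300 bases, the Ccno window 25 in 228 and the Foxj1 window 14 in 195. Among windows of the same length placed at all 44535 summits of that list, the share with fewer CpG was 56.8% for Gmnc, 92.4% for Ccno and 80.8% for Foxj1. The windows were searched on both strands for 5 short motifs, namely TGTTTAC (forkhead), GTTGCC (an RFX half-site), GGCGGGA (E2F), TAATCC (OTX) and CCAAT, none of which contains another. GTTGCC began at position 10 of the Ccno window and position 83 of the Foxj1 window, counted from the 5′ end, and occurred in 10.7% and 9.32% of all windows of those lengths. GGCGGGA began at position 62 of the Ccno window (6.54% of all windows) and CCAAT at position 135 of the Foxj1 window (33.4%). No match to the 5 motifs was present in the Gmnc window.

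Promoter peaks were listed for 5 of the 9 genes. Ctrl1 had 4 (Mcidas, Ccno, Foxj1 and Ttr), Ctrl2 had 0, cKO1 had 4 (Gmnc, Ccno, Foxj1 and Ttr) and cKO2 had all 5. On average a cKO library had 4.5 and a Ctrl library 2, and the difference of 2.5 was smaller than the SD of the Ctrl pair, 2.83 (n = 2 per group). Without Ctrl2 the difference was 0.5, and with every list cut to its 7037 strongest peaks it was 0. Otx2, Folr1, Kl and Clic6 had no promoter peak in any list, as was the case for 39.9% of all protein-coding genes. With 2 libraries per group an exact permutation test cannot give a p below 0.333.

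Each promoter was placed by its percentile, the percentage of protein-coding genes ranked below it by the −log10 p of their best promoter peak in that library (0 where no peak was listed). For 4 members (Gmnc, Ccno, Foxj1 and Ttr) the lower cKO percentile exceeded the higher Ctrl percentile, which held for 20.5% of the 13196 genes whose promoter was listed at least once. For 0 members and 2.8% of those genes the order was the reverse. With Ctrl2 left out, the same 4 members were above Ctrl1 in both cKO libraries, as were 23.8% of those genes, and 0 members and 36.6% were below it. The members were chosen with these values known, and nothing is read from that count. A list with fewer promoters starts at a higher percentile: the lowest value of any gene with a peak was 42.0 in Ctrl1, 59.8 in cKO1 and 44.2 in cKO2. Depth was therefore also used. Scaled depth is the number of fragments over the summit relative to the average depth over that library's genome, and its intervals are 95% Poisson intervals that cover counting error only.

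**Figure D1:**
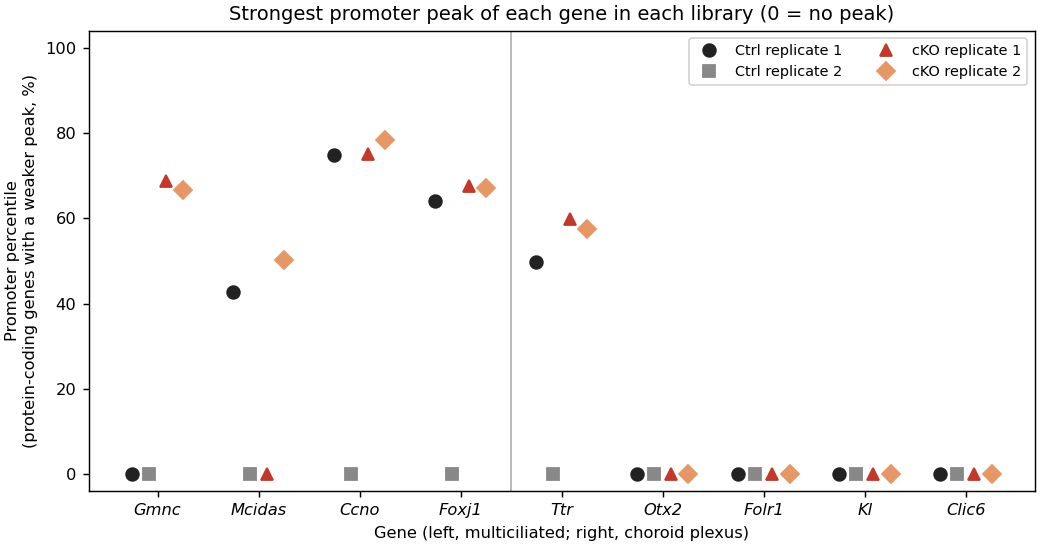
Promoter percentile (y axis, percent of protein-coding genes with a weaker promoter peak) of the 9 genes (x axis) in each of the 4 libraries, 1 point per library. Gmnc sits at 0 in both Ctrl libraries and at 68.7 and 66.7 in the cKO libraries, whereas Ccno, Foxj1 and Ttr have values above 0 in Ctrl1 as well and Otx2, Folr1, Kl and Clic6 are at 0 throughout.

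Gmnc (chromosome 16, 26913553 to 26991652, minus strand, 3 TSSs) was the one member whose promoter was listed in cKO1 and cKO2 but not in Ctrl1 or Ctrl2, a pattern called cKO-only below. Its percentile was 0 in both Ctrl libraries, 68.7 in cKO1 and 66.7 in cKO2. In all, 27 genes had that pattern, 0.123% of all 21951 protein-coding genes and 0.205% of the 13196 with a listed promoter, and 2 had the opposite, Ctrl-only one (0.0152%). Because Ctrl2 listed few promoters, Ctrl1 carried most of the contrast: 29 genes (0.22%) were listed in both cKO libraries and absent from the Ctrl1 list. With Ctrl2 left out, 854 genes (6.47%), none of them a member, were listed in Ctrl1 and in neither cKO library. Gmnc was put on the list with this known. It held no promoter peak among the 7037 strongest of any library.

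The Gmnc peak lay 168 bp from the TSS of Gmnc-201 in cKO1 and 234 bp in cKO2. It held 15 fragments (8.40 to 24.7) in cKO1 and 26 (17.0 to 38.1) in cKO2, or 7.23 and 14.4 times the mean genome depth. It ranked 12554 of 21404 and 12807 of 44535 peaks. The depth at this site in the Ctrl libraries is not known from the lists. An unlisted promoter is one in which no peak was called and may still hold fragments below the threshold. In bulk tissue, more cells with an open promoter and a more open promoter in each cell cannot be told apart.

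A second peak within 2 kb of a Gmnc TSS was listed in cKO1, 1852 bp upstream of Gmnc-202 (26993499 to 26993735), with 11 fragments in fully repeat-masked sequence. No other member promoter peak lay more than 990 bp from a TSS. The nearest peaks outside the 2 kb limit that belonged to no other gene's promoter were 5502 bp from the Foxj1 TSS (14 fragments) and 5700 bp from the Kl TSS (8 fragments), both in Ctrl1.

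Mcidas (chromosome 13, 112993845 to 113000394, plus strand) had the lowest percentile of the multiciliated promoters listed in Ctrl1 and of those listed in cKO2. Its percentile was 42.6 in Ctrl1, 0 in Ctrl2, 0 in cKO1 and 50.1 in cKO2. The peaks held 10 fragments 520 bp from the TSS in Ctrl1 and 16 fragments 376 bp from it in cKO2, inside the gene. The groups overlapped. Presence in Ctrl1 and cKO2 alone was common, at 23.3% of the 13196 genes, and these were the longest 2 lists. The difference of mean percentiles, 3.76, turned to −17.5 without Ctrl2 and to −21.3 without cKO2.

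Ccno (chromosome 13, 112987802 to 112990777, plus strand) had the strongest promoter of the 9 within each library that listed it. The percentile was 74.97 in Ctrl1, 0 in Ctrl2, 75.2 in cKO1 and 78.4 in cKO2. The summits, 10 to 159 bp upstream of the TSS, held 46 fragments in Ctrl1, 22 in cKO1 and 46 in cKO2. In scaled depth these were 28.4 (20.8 to 37.8) in Ctrl1, 10.6 (6.65 to 16.1) in cKO1 and 25.5 (18.6 to 34.0) in cKO2. Ctrl1 and cKO2 thus differed by less than their counting intervals, and cKO1 was lower than both.

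Foxj1 (chromosome 11, 116330704 to 116335399, minus strand) likewise had a promoter peak in every list but that of Ctrl2. The percentile was 64.2 in Ctrl1, 0 in Ctrl2, 67.5 in cKO1 and 67.2 in cKO2. Fragments at the summit numbered 33, 16 and 37 in the 3 libraries with a peak, at scaled depths of 20.3, 7.71 and 20.5. Ctrl1 and cKO2 thus differed by less than their counting intervals, and cKO1 was lower than both.

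Ttr (chromosome 18, 20665280 to 20674321, plus strand) was the one choroid plexus member with a promoter peak, which lay in its first intron, 872 to 990 bp after the TSS. The percentile was 49.8 in Ctrl1, 0 in Ctrl2, 59.8 in cKO1 and 57.5 in cKO2. The summits held 15, 9 and 19 fragments, at scaled depths of 9.25, 4.34 and 10.5. In cKO1 the peak ranked 21104 of 21404 and rested on the fewest fragments of any peak in that list, 9, although its percentile was higher than in Ctrl1. At −log10 q of at least 5 that peak was no longer listed, and the cKO percentiles of Ttr then lay on either side of that of Ctrl1.

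Ccno, Foxj1 and Ttr shared their pattern with many genes. A promoter peak in Ctrl1 and both cKO lists but not in Ctrl2 was found for 6974 of the 13196 genes (52.8%). Over those genes the median scaled depth was 27.7 in Ctrl1, 10.1 in cKO1 and 23.2 in cKO2, and cKO1 was the lowest of the 3 libraries there, as it was at each of the 3 members. Gmnc also had its lower depth in cKO1.

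**Figure D2:**
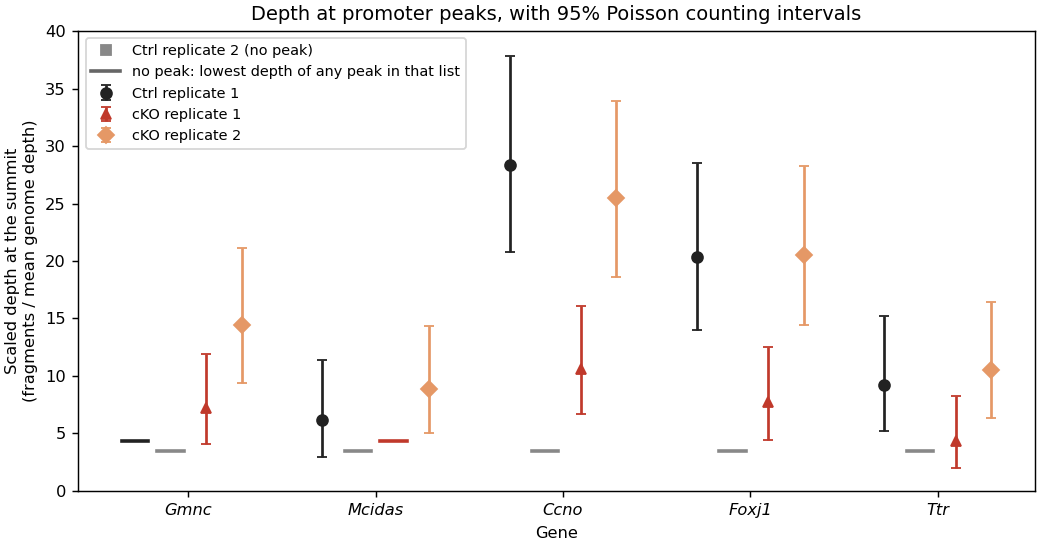
Scaled depth (y axis, fragments at the summit over mean genome depth) of the promoter peaks of 5 genes (x axis), with 95% Poisson counting intervals as bars and 1 point per library. A flat dash stands for a library with no peak and marks the lowest scaled depth of any peak in that list, 4.32 in Ctrl1, 3.46 in Ctrl2 and 4.34 in cKO1, which is not a measured depth or a limit for that promoter.

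Genes with percentiles nearest to those of each member, by the summed absolute difference over the 4 libraries among 21950 other genes, were found next. For Gmnc they were Emp3 (6.74), Ptger1 (8.05) and Loxl1 (10.6), each cKO-only. For Mcidas they were Gpr83 (0.556), Chrm1 (0.797) and Arxes2 (0.861). For Ccno, Kif1a was nearest (0.601), followed by Eno1 and Fbxl15. Mcm2 was nearest to Foxj1 (1.26), followed by Gtf3a and Tmem74, and Ank3 was nearest to Ttr (2.11), followed by Spock3 and Dync1i1. The nearest genes of Gmnc were thus farther from it than those of the other 4 members were from theirs. The cKO-only pattern of Gmnc was that of 27 genes, against 6974 for Ccno, Foxj1 and Ttr and 3076 for Mcidas. Because the members were chosen with these percentiles known, nothing is read from the distances.

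CpG content was computed from the reference, which the choice of genes did not use, over 1000 bp around a TSS. For a gene with several TSSs, the TSS with the highest ratio of observed to expected CpG was taken. It need not be the TSS nearest to the peak. The ratio of observed to expected CpG was 0.643 at Gmnc, 0.781 at Mcidas, 0.856 at Ccno and 0.695 at Foxj1. The choroid plexus genes ranged from 0.205 at Folr1 to 0.783 at Otx2, with 0.257 at Ttr, 0.411 at Clic6 and 0.724 at Kl. With a ratio of at least 0.6 and GC of at least 50%, Mcidas, Ccno, Foxj1, Otx2 and Kl were CpG-rich, and Gmnc fell just short at 49.3% GC. Among all protein-coding genes, CpG-rich promoters had a peak in 91.2% of cases in Ctrl1, 15.1% in Ctrl2, 68.6% in cKO1 and 88.9% in cKO2, and CpG-poor promoters in 26.1%, 1.73%, 12.9% and 24.0%. Otx2 and Kl lacked a peak although their promoters were CpG-rich, and Ttr had one in 3 lists with a CpG-poor promoter.

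Peaks were then counted in each gene and the 50 kb on either side of it, its locus. The 9 loci held 31 peaks in Ctrl1, 5 in Ctrl2, 18 in cKO1 and 30 in cKO2, counting the overlapping loci of Mcidas and Ccno once. Group means were 24 ± 8.49 peaks for cKO and 18 ± 18.4 for Ctrl (SD, n = 2 each), a difference of 6 that was smaller than either SD and became −7 without Ctrl2. A protein-coding locus held a median of 3, 0, 2 and 3 peaks in the same order of libraries, and the median member 4, 0, 2 and 4. Merged over lists wherever they overlapped, the peaks gave 42 regions, of which 6 lay at a member's own promoter, 9 at the promoter of another protein-coding gene and 27 elsewhere. The 3 lists other than Ctrl2 shared 8 regions, Ctrl1 and cKO2 alone shared 11 (the pattern of 27.1% of all merged regions), all 4 lists shared 2, and 16 regions were in 1 list.

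Of the 42 regions, 3 were cKO-only, against 406 of all 58652 merged regions (0.692%). Ctrl-only regions numbered 0 of the 42, against 179 of all regions (0.305%). With Ctrl2 left out, an alternative added after the data were seen, the counts turned: 5 of the 42 were in both cKO lists and not in that of Ctrl1 (1.57% of all regions), and 9 were in that of Ctrl1 and in neither cKO list (19.1%). The second count needs 1 list where the first needs 2. The 9 genes were chosen with their peaks known, and nothing is read from these counts. Those of the 5 regions that were not cKO-only lay upstream of Ttr in mostly repeat-masked sequence and were also in the list of Ctrl2. The 3 cKO-only regions were the Gmnc promoter and 2 regions in the locus of Foxj1. One of these lay in an intron of Rnf157, 25653 to 25743 bp upstream of the Foxj1 TSS (116361010 to 116361331), with 10 fragments in cKO1 and 19 in cKO2. The other was intergenic, 48394 to 48412 bp downstream of the Foxj1 TSS (116286723 to 116287232) and nearest to Galr2, with 15 and 16 fragments.

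**Figure D3:**
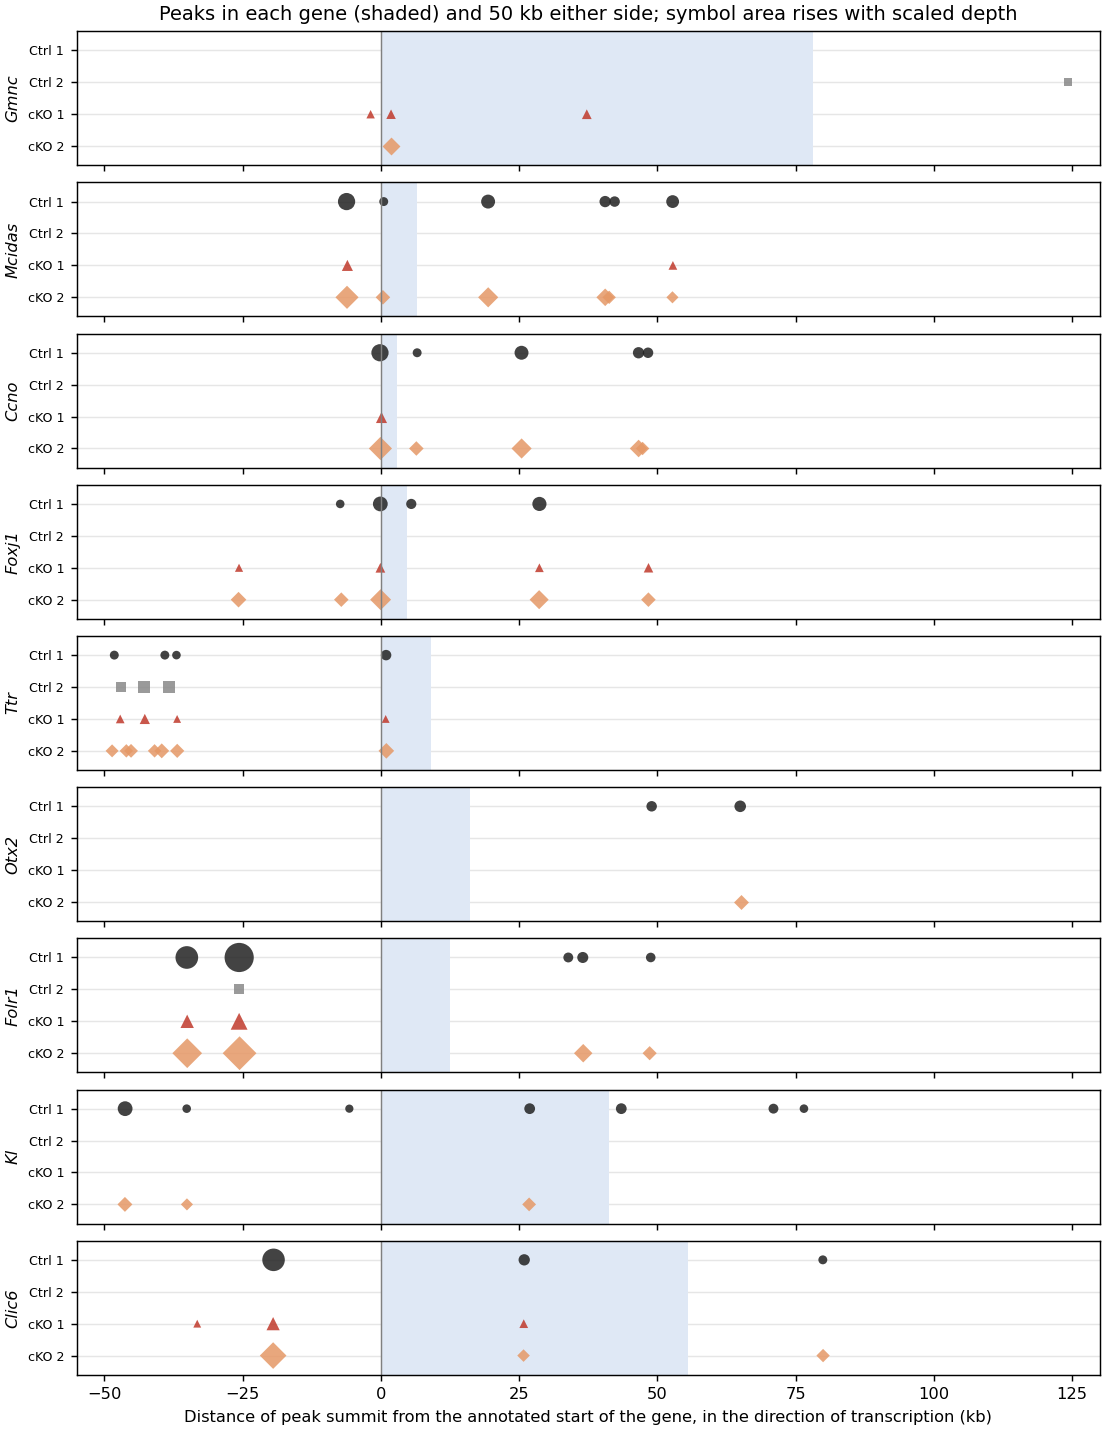
Peaks of each library in the 9 genes (shaded) and 50 kb either side, by distance from the outermost annotated start in the direction of transcription (x axis, kb), 1 row per library and 1 panel per gene, with symbol area rising with scaled depth. The Gmnc panel has no peak from Ctrl1, the Otx2 and Kl panels have none from cKO1, and Ctrl2 has peaks in the Gmnc, Ttr and Folr1 panels only.

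The sequence of the Foxj1 upstream region is shown because it is a tandem repeat, none of it repeat-masked in the reference. The part of the repeat in these peaks was not tested. The intergenic region beyond Mcidas and the Clic6 intron are shown as the deepest peak of cKO2 away from any promoter in the 9 loci and as the one region inside a choroid plexus gene, Ttr aside, that 3 lists shared. The windows are, in order, chr11:116361043-116361291 (minus strand), chr13:113013109-113013408 (plus strand) and chr16:92511395-92511694 (plus strand), in mm10 with CpG in capitals.
Foxj1 upstream: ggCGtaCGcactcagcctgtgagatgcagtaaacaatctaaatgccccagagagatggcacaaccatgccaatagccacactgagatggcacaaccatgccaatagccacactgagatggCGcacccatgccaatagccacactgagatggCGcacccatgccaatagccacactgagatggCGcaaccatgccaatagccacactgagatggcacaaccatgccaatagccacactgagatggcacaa
Mcidas downstream: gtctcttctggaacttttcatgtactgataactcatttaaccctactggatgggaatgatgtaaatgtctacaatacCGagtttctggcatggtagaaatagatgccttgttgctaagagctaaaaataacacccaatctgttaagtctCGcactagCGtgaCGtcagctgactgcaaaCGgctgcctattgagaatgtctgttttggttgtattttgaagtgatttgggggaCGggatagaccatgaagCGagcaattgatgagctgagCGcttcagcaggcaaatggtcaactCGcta
Clic6 intron: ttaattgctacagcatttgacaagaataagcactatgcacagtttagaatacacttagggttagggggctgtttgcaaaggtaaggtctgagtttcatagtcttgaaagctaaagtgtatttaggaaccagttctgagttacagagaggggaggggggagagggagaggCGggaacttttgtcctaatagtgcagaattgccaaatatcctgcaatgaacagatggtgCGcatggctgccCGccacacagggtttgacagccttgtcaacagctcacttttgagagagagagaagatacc
In the Foxj1 upstream window CCAAT occurred 6 times, first at positions 69 and 100, once per repeat unit, and TGTTTAC once at position 29 on the opposite strand. Of all windows of that length, 38.8% held CCAAT and 2.95% TGTTTAC. The Mcidas downstream window held CCAAT once, at position 134 (43.0% of windows), and the Clic6 window held GGCGGGA once, at position 168 (8.09%). They held 9 and 3 CpG in 300 bases, more than 64.3% and 24.8% of windows.

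In the Gmnc locus there were 0 peaks in Ctrl1, 1 in Ctrl2, 3 in cKO1 and 1 in cKO2. Apart from the promoter, cKO1 held a peak outside the annotated basic transcripts at 26954277 to 26954607 with 16 fragments, 13840 bp beyond the start of Gmnc-204. The single peak of Ctrl2 (26866559 to 26867491, 21 fragments) lay entirely in repeat-masked sequence. No region of this locus was shared between a Ctrl and a cKO list.

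Mcidas and Ccno lie head to tail, so that their loci share most peaks and the Ccno promoter counts in both. The locus of Mcidas held 6, 0, 2 and 6 peaks in Ctrl1, Ctrl2, cKO1 and cKO2. The intergenic region beyond Mcidas (113012783 to 113013418), 19399 bp after its TSS in Ctrl1 and 19414 bp in cKO2, held 29 and 34 fragments, at scaled depths of 17.9 and 18.8. It was deeper than the Mcidas promoter in both libraries and was listed in neither of the other two. The remaining regions lay at the promoters of Cdc20b, which is needed for centriole production in the same cells, and of Gpx8. At the Gpx8 promoter the depth was 14.8 times the genome mean in Ctrl1, 5.78 in cKO1 and 5.54 in cKO2.

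The Foxj1 locus held 4, 0, 4 and 5 peaks in the same order. A region in an intron of Rnf157, 7155 to 7353 bp upstream of the TSS, had 9 fragments in Ctrl1 and 16 in cKO2. The Exoc7 promoter, downstream of Foxj1, had 30 fragments in Ctrl1, 12 in cKO1 and 30 in cKO2. At scaled depths of 18.5, 5.78 and 16.6, cKO1 was again the lowest.

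The Ttr locus held 4, 3, 4 and 7 peaks. All but the intronic promoter peak fell in 6 regions between 20616521 and 20629271, in an intron of Gm16090 upstream of Ttr, where 61.7 to 98.1% of the bases of each peak were repeat-masked. All 3 peaks of Ctrl2 were among them, with 24, 44 and 38 fragments. The promoter peak itself contained no masked base. Of the 6 regions, 1 was in all 4 lists.

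Otx2 (chromosome 14, 48657677 to 48673819, minus strand, 5 TSSs) had 2, 0, 0 and 1 peaks in its locus, all intergenic and downstream. A region at 48608589 to 48609177 held 19 fragments in Ctrl1 and 17 in cKO2. A region at 48624666 to 48625364 held 15 in Ctrl1 alone. Neither was in a cKO list only.

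Folr1 (chromosome 7, 101858331 to 101870788, minus strand, 5 TSSs) had 5, 1, 2 and 4 peaks in its locus and none inside the gene. The strongest was at the promoter of Anapc15, a subunit of the anaphase-promoting complex, with 138 fragments in Ctrl1, 22 in Ctrl2, 56 in cKO1 and 102 in cKO2. Its scaled depths were 85.1, 6.35, 27.0 and 56.5. It was one of the 2 regions found in all 4 lists, and Ctrl2 was far below the other libraries there. The Lamtor1 promoter held 82, 34 and 78 fragments in Ctrl1, cKO1 and cKO2, and the other 3 regions lay in or at Inppl1 and Phox2a.

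Kl (chromosome 5, 150952607 to 150993817, plus strand) had 7, 0, 0 and 3 peaks in its locus. An intronic region 26819 to 26918 bp after the TSS held 16 fragments in Ctrl1 and 14 in cKO2. A region 46257 to 46290 bp upstream held 33 and 17 fragments, at scaled depths of 20.3 and 9.41. All 3 peaks of cKO2 were at regions that Ctrl1 also held, and 4 regions were in Ctrl1 alone.

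Clic6 (chromosome 16, 92485736 to 92541243, plus strand) had 3, 0, 3 and 3 peaks in its locus. Its intronic region (92511389 to 92512277), 13411 to 13532 bp after the TSS, held 18 fragments in Ctrl1, 12 in cKO1 and 11 in cKO2. The scaled depths were 11.1, 5.78 and 6.09, with the Ctrl library the highest. The Rcan1 promoter upstream held 81, 33 and 62 fragments in the same 3 libraries.

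Further genes of both cell types were counted from lists that hold none of the 9 members. Of 44 genes of the multiciliated programme, 30 had a promoter peak in Ctrl1 (68.2%), 6 in Ctrl2 (13.6%), 17 in cKO1 (38.6%) and 28 in cKO2 (63.6%). Group means were 22.5 ± 7.78 genes for cKO and 18 ± 17.0 for Ctrl (SD, n = 2 each), and the difference of 4.5 was smaller than either SD. It turned to −7.5 without Ctrl2 and to −1 without cKO2. The median percentile was 53.8, 0, 0 and 53.1 in the 4 libraries, beside 49.9, 0, 0 and 50.0 over all protein-coding genes. None of the 44 promoters was cKO-only (0.123% of all protein-coding genes) or Ctrl-only. With Ctrl2 left out, 0 were in both cKO lists and not in that of Ctrl1, and 3 (Dynlrb2, Spag16 and Tekt1) were in that of Ctrl1 and in neither cKO list, as were 6.47% of the 13196 genes with a listed promoter.

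The strongest promoters of this list were those of Rfx1 and Rfx3, members of the factor family that regulates ciliary genes, and of the centrosomal gene Cep63. Each had a peak in all 4 lists, with percentiles of 98.8 to 99.6 for Rfx1, 97.4 to 99.0 for Rfx3 and 94.98 to 97.6 for Cep63. Genes without a promoter peak in any list numbered 13 of the 44, beside 39.9% of all protein-coding genes, 11 of them with a CpG-poor promoter. They included the regulators Foxn4 and Trp73 and the axonemal genes Dnah5 and Dnaic2, whereas the regulator Myb and the axonemal genes Dnah9 and Dnaic1 had a peak in the 3 lists other than that of Ctrl2. These 7 were named after their values were seen.

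Of 40 further choroid plexus genes, 15 had a promoter peak in Ctrl1 (37.5%), 2 in Ctrl2 (5%), 8 in cKO1 (20%) and 16 in cKO2 (40%). The shares were below those of all protein-coding genes in each library, and 15 of the 40 promoters were CpG-rich (37.5%) against 49.0% of all. Group means were 12 ± 5.66 genes for cKO and 8.5 ± 9.19 for Ctrl (SD, n = 2 each). The difference of 3.5 was smaller than either SD and turned to −3 without Ctrl2 and to −0.5 without cKO2.

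Slc4a2, an anion exchanger, had a promoter peak in all 4 lists at percentiles of 87.0 to 97.2. Its summits lay 1512 to 1535 bp from the nearest Slc4a2 TSS. Atp1b1, a sodium pump subunit, and Slc12a2, a cotransporter of sodium, potassium and chloride, followed with a peak in 3 lists. Rdh5, a retinol dehydrogenase, was the one cKO-only gene of the 40 (0.123% of all protein-coding genes), at percentiles of 60.6 and 50.8. With Ctrl2 left out, Rdh5 was still the one gene in both cKO lists and not in that of Ctrl1, and 1 gene (Ace) was in that of Ctrl1 and in neither cKO list. Of the 40, 22 had no promoter peak in any list (39.9% of all protein-coding genes), among them Kcne2, Kcnj13, Aqp1 and Lmx1a. Enpp2 and Igfbp2 had one in the 3 lists other than that of Ctrl2, and Msx1, Trpm3 and Cldn1 in those of Ctrl1 and cKO2. These 9 were likewise named after their values were seen. How much of the Ttr peak came from choroid plexus cells in the dissected tissue was not tested. Of 10 microglial and vascular genes, 1 (Flt1) had a promoter peak, in Ctrl1 and cKO1. Flt1 was also the 1 gene of these 10 with a CpG-rich promoter.

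**Figure D4:**
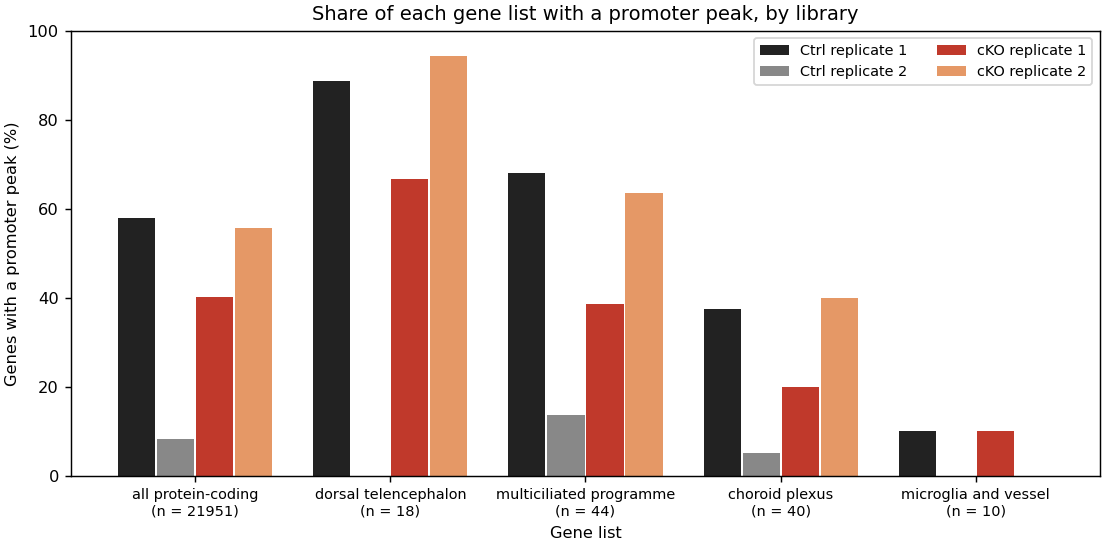
Share of genes with a promoter peak (y axis, percent) in each gene list (x axis, with the number of genes), 1 bar per library. Both multiciliated and choroid plexus shares are highest in Ctrl1 and cKO2 and follow the shares of all protein-coding genes, 58.0% and 55.8% in those libraries, 40.2% in cKO1 and 8.27% in Ctrl2.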

How the data were processed

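ATAC-seq was made from P0 hippocampi of 2 cKO and 2 Ctrl samples, grouped by their titles. The methods of the study state that the authors used Cutadapt for trimming and Bowtie2 for alignment to mm10. They filtered out blacklisted, mitochondrial and duplicate reads, corrected for the Tn5 offset and ran MACS2 2.2.7.1. Each library had its own deposited list. The lowest −log10 q was 1.31 to 1.32 in every list, and the lowest −log10 p ran from 3.33 in Ctrl1 to 3.93 in Ctrl2. The deposited fold enrichment is the ratio of depth over background at the summit. The −log10 p and −log10 q are the authors' Poisson values, and the deposited score, a display value, was not used. Fragment depth was recovered from the fold and p (a whole number within 0.01 of −log10 p for 99.986 to 100% of peaks). A run on data simulated with the same formulas checked the arithmetic alone, not how the deposited values were computed. Peaks were assigned with GENCODE M21 basic TSSs in Python 3.11.15 with pandas 2.3.3, scipy 1.17.1 and pysam 0.24.0. Dnai1 and Dnai2 of the gene list were matched as Dnaic1 and Dnaic2. The 9 genes and all gene lists were chosen with earlier results of these data known. All 9 genes are named. Of other lists, the 3 genes with the highest mean percentile and any in both lists of 1 group only are named, and for each member with a promoter peak the 3 nearest genes. With Ctrl2 left out, genes of the multiciliated and choroid plexus lists held by Ctrl1 and neither cKO list, or the reverse, are also named. Others named from the lists were picked after their values were seen, as said beside them. A gene that this rule would name is not reported here. Alternatives were equal-size lists (each cut to its 7037 strongest peaks), −log10 q of at least 5, no repeat-masked peaks (at least 50% masked), other promoter and flank widths, assignment by overlap, and each library left out.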

Additional observations from a re-analysis of the deposited data

How the results depend on the processing

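The difference in members with a promoter peak, 2.5, became 0 in equal-size lists, was 2.5 under the other settings that kept all 4 libraries, and ran from 0.5 to 4.5 with 1 library left out. The difference in locus peaks became −1 in equal-size lists and ran from −7 (without Ctrl2) to 19 with 1 library left out. The same range was −7.5 to 16.5 for the multiciliated list and −3 to 10 for the choroid plexus list, negative without Ctrl2 (−7.5 and −3) and without cKO2 (−1 and −0.5). With all libraries kept, equal-size lists gave 1.5 for the multiciliated list (from 4.5) and 0 for the choroid plexus list (from 3.5), −log10 q of at least 5 gave 1 for the choroid plexus list and 4 for locus peaks (from 6), and a flank of 20 kb gave 3 for locus peaks. Leaving out a library changes the mean of its group by construction. The percentile difference of Mcidas ran from −21.3 to 28.8. It was −17.5 without Ctrl2 and −21.3 without cKO2. At −log10 q of at least 5 that of Ttr fell from 33.8 to 3.88 and that of Mcidas rose to 25.1. Without Ctrl2 it was 1.85 for Ccno, 3.18 for Foxj1 and 8.91 for Ttr. That of Gmnc stayed between 66.7 and 68.7 with 1 library left out. With both Ctrl percentiles at 0, known when Gmnc was chosen, this range could only reflect its cKO percentiles, and nothing is read from it. The difference of Gmnc was kept at −log10 q of at least 5 but was 0 in equal-size lists. There Ccno alone kept a peak (in Ctrl1 and cKO2), and its difference was 1.72. The 27 cKO-only genes (promoter listed in cKO1 and cKO2 alone) became 86 in equal-size lists, 12 at −log10 q of at least 5, and 29 to 7001 with 1 library left out (7001 without Ctrl1, 418 without cKO1 and 42 without cKO2). No paired analysis was possible because no result comes from a test and the labels tie no replicate number to a litter, batch or day. Gmnc in cKO1 and Mcidas in Ctrl1 rest on 15 and 10 fragments, where the weakest peaks of those lists hold 9 and 7, and the lists say nothing of fragments at promoters where no peak was called. Nothing in the labels ties the libraries to separate animals, so the spread between them may be technical.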
